A study of Arabidopsis thaliana with 27 samples.

Results

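Root tips of the pG1090::XVE ≫ ΔMP line after 180 min of estradiol were compared with root tips of the same line after 90 min of mock treatment, across all genes beyond the gibberellin and Aux/IAA families. The comparison rests on 6 of the 27 RNA-seq libraries of the study, 3 in each group (A, B and C), taken by the genotype, treatment and time in the sample labels. All seedlings were 5 d old, and their plates were covered with liquid medium holding 2.5 µM estradiol or, for the mock, DMSO. The groups used here were ΔMP after 90 and 180 min of estradiol and in mock, and Col-0, the background without an inducible transgene, under the same 3 conditions. The mock was taken at 90 min, so the comparison also holds 90 min of time, and the response of Col-0 over the same conditions shows what time and estradiol do without the transgene. The study's methods speak in general of biological replicates, but neither they nor the labels say for these libraries that the 3 of a group came from separate cultures. The p-values thus measure the spread between libraries of a group, estimated in a fit of all 27 libraries. That fit includes the study's other inducible line, which carries a dominant form of the auxin signaling inhibitor AXR3 and is not compared here.

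Auxin brings about the destruction of Aux/IAA proteins, which otherwise hold back the ARF transcription factors at the promoters of auxin-responsive genes. ARF5, also called MONOPTEROS (MP), is an activating ARF known for the formation of the embryonic root and of vascular tissue. ΔMP is a form of it that escapes Aux/IAA repression. XVE is a chimeric transcription factor, made here from the broadly active pG1090 promoter, that switches the transgene on once it binds estradiol, so ΔMP was made in most cells of the root and not in the native MP domain alone. In whole root tips, fewer cells of a type and less RNA per cell cannot be told apart.

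The libraries compared held from 15935379 to 27042535 estimated read pairs on coding sequences (median 22904574.5), and the 27 libraries from 13634037 to 34272503. Across genes, the correlation of log2 values was 0.9942 to 0.9953 within the estradiol libraries, 0.9959 to 0.9966 within the mock libraries and 0.9802 to 0.9825 between the groups. Native and transgenic MP share coding sequence and were counted together, on the coding length of native MP. For its ΔMP construct in tobacco the study used only a part of that sequence. It does not state the length in this line, so the size of the rise is approximate. MP (AT1G19850) had 1416, 1342 and 1425 TPM (transcript abundance scaled to coding length and library size) after 180 min of estradiol, against 9.47, 9.06 and 9.09 TPM in mock, and 9.66 ± 0.551 TPM in Col-0 at 180 min (SD, n = 3).

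A gene is said to have risen or fallen when its adjusted p in edgeR's quasi-likelihood test was at most 0.05, and counts as called when the size of its log2 fold change reached 1 as well. Of 19530 genes tested, 2487 rose (12.7%) and 2360 fell (12.1%). Those called up were 457 (2.34%) and those called down 255 (1.31%), and in 698 of these 712 genes the libraries of the groups did not overlap. With 3 libraries a group this follows largely from the call itself and is no separate support. The share over all genes is not given here. The median log2 fold change of all genes tested was 0.0137. Against the response of Col-0, tested as an interaction term, 1113 genes (5.7%) responded higher in ΔMP and 857 (4.39%) lower, of which 320 (1.64%) and 166 (0.85%) also differed by a log2 value of at least 1. In Col-0 itself 445 genes (2.28%) rose and 788 (4.03%) fell between mock and 180 min. These shares are the background against which the counts of each gene family are to be read. Of the called genes, 389 reached a mean of 5 TPM in the higher group, and 17 also differed between the ΔMP mock and the Col-0 mock. Of the 457 genes called up, 291 also responded differently from Col-0 and 29 also rose in Col-0, and of the 255 called down these were 176 and 48.

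**Figure D1:**
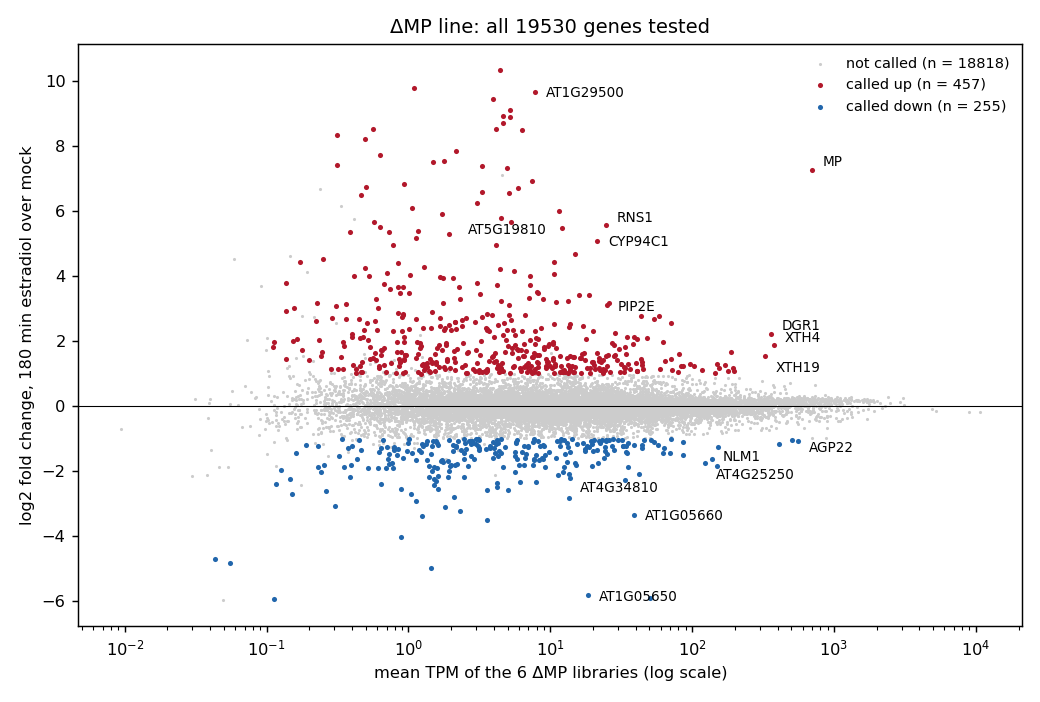
Each point is 1 of the 19530 genes tested in the ΔMP line, with the mean TPM of the 6 libraries on a log axis and the log2 fold change of 180 min of estradiol over mock on the other axis. The 457 genes called up (red) reach larger fold changes than the 255 called down (blue), and MP has a log2 fold change of 7.27. Fold changes of genes without a count in mock depend on the prior count.

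The SAUR (SMALL AUXIN UP RNA) family, whose short proteins promote acid growth by keeping plasma membrane proton pumps active, was among the families with the largest share of called genes. Of 78 SAUR loci, 43 were tested, and 23 of these rose, 8 fell, 18 were called up and 3 were called down. The share called was 48.8%, against 3.65% of all genes. In 15 of the 43 the mock mean was below 1 TPM, so that many entered the test through their estradiol libraries alone and could hardly have been found lower. In Col-0, 1 of the 43 fell and none rose. By the interaction term 7 of the 43 responded higher than in Col-0 and 4 lower. Of those higher, AT1G29430, SAUR29 and AT4G38860 did not pass when single Col-0 mock libraries were left out.

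Many of these genes lie side by side. On chromosome 1, a run of 8 SAUR loci from AT1G29420 to SAUR68 (AT1G29510) (TAIR10.1, chr1:10301377-10323239) held 6 tested genes, and all 6 were called up. On chromosome 3, all 3 tested of 5 loci in chr3:976715-983768 were called up, and on chromosome 4 both tested of 4 loci in chr4:18121526-18131284 were. Of all genes 2.34% were called up. The tested genes of the runs on chromosomes 1 and 3 had no or nearly no count in mock. They passed the filter on low counts through other libraries and could hardly have been found lower. The counts of these runs were thus nearly fixed in advance. A run of 7 loci elsewhere on chromosome 4 (chr4:16577180-16599568) behaved otherwise: of its 4 tested genes 2 rose and 2 fell, and 1 was called down. Of the 6 neighboring loci in chr5:5962773-5984308, none passed the filter on low counts. Of the 27 tested SAUR genes outside such runs, 9 rose and 6 fell.

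The promoters of the 6 tested genes of the chromosome 1 run are shown, since these neighbors were all called up with no or nearly no count in mock. Each is given 5′ to 3′ on the strand of the gene and holds the 250 bases that end at the annotated gene start in TAIR10.1. Capitals mark the auxin response element TGTCTC or the variant TGTCGG, which ARF proteins bind, searched on both strands.
AT1G29430, chr1:10303419-10303668, minus strand: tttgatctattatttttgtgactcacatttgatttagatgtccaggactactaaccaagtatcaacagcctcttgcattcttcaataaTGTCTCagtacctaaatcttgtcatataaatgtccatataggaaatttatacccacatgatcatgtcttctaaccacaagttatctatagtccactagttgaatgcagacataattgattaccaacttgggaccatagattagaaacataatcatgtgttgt
SAUR63, chr1:10305109-10305358, minus strand: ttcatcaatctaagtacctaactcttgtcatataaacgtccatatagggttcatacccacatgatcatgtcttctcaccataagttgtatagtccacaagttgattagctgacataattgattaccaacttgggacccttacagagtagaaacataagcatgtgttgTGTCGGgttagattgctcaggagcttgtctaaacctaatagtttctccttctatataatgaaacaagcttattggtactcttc
AT1G29450, chr1:10306596-10306845, minus strand: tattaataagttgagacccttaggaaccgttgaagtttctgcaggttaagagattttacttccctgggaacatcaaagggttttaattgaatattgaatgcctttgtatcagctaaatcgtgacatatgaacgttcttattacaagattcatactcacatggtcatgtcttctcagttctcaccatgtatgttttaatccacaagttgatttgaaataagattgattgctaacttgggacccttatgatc
AT1G29460, chr1:10308247-10308496, minus strand: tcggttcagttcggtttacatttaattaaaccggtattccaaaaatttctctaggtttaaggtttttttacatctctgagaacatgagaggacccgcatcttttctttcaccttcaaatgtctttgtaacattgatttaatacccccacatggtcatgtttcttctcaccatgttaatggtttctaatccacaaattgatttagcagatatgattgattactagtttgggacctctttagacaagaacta
AT1G29500, chr1:10320761-10321010, plus strand: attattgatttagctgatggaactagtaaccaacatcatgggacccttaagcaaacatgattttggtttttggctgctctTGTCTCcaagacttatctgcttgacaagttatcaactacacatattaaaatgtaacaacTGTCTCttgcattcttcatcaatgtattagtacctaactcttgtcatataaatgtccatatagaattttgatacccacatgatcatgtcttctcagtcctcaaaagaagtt
SAUR68, chr1:10322173-10322422, plus strand: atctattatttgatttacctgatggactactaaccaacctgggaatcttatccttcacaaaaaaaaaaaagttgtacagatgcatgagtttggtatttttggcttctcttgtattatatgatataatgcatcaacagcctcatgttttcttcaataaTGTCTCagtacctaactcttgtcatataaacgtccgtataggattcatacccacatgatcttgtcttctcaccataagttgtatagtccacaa
The letters stood 162 bases before the gene start in AT1G29430, 83 in SAUR63 (AT1G29440), 170 and 111 in AT1G29500 and 93 in SAUR68, and were not in this window in AT1G29450 and AT1G29460. A match of letters is a description and not a site of binding.

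AT1G29500 had 16.2, 13.0 and 17.9 TPM after 180 min of estradiol, against no count in any mock library, at least 109.9-fold higher when the mock is set to a floor of 3 counts over the group. SAUR68 had 8.95, 6.10 and 12.7 TPM against none (at least 56.2-fold), and AT1G29430 had 8.28, 7.42 and 8.93 TPM against none (at least 49.4-fold). AT1G29450 had 3.11, 5.34 and 4.54 TPM against none, and SAUR63 had 5.63, 4.12 and 8.34 TPM, against 0.230, 0 and 0 TPM in mock. AT1G29460 had 7.37, 10.8 and 12.2 TPM, against 0.188, 0 and 0.119 TPM in mock, a ratio of counts of 117 with a 95% counting interval of 31.9 to 968. These genes were silent or nearly so in mock root tips and all reached several TPM. Part of the coding sequence is shared with other genes in AT1G29430 (44% of its 31-base words) and in SAUR63 and SAUR68 (34% each), so reads may be split among them. On chromosome 3, SAUR29 (AT3G03820) had 11.4, 10.4 and 13.3 TPM, against 0, 0.242 and 0 TPM in mock, and SAUR26 (AT3G03850) had 8.13, 16.5 and 13.5 TPM, against none in mock (at least 49.4-fold). In Col-0 the 10 genes called up in ΔMP with no count in either Col-0 group included SAUR26, SAUR63 and AT1G29450, and for such genes the interaction term could not be estimated.

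Among SAUR genes with ample counts in mock the direction differed from gene to gene. AT1G72430 had 231, 216 and 283 TPM, against 88.5, 94.7 and 104 TPM in mock (log2 fold change 1.28, standard error 0.09, adjusted p = 1.81e-13). AT4G31320 had 31.7, 33.0 and 36.4 TPM, against 94.7, 86.3 and 94.2 TPM (log2 fold change −1.42), and AT4G34810 had 2.57, 4.00 and 3.03 TPM, against 29.2, 23.3 and 19.8 TPM (−2.82). AT1G19840 had 5.07, 5.37 and 3.68 TPM, against 12.8, 13.7 and 14 TPM (−1.50). In each of these 4 genes the groups did not overlap and the response differed from that of Col-0. The sum over all 78 SAUR loci, tested or not, was 936 ± 78.0 TPM after 180 min of estradiol and 778 ± 10.8 TPM in mock (SD, n = 3).

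**Figure D2:**
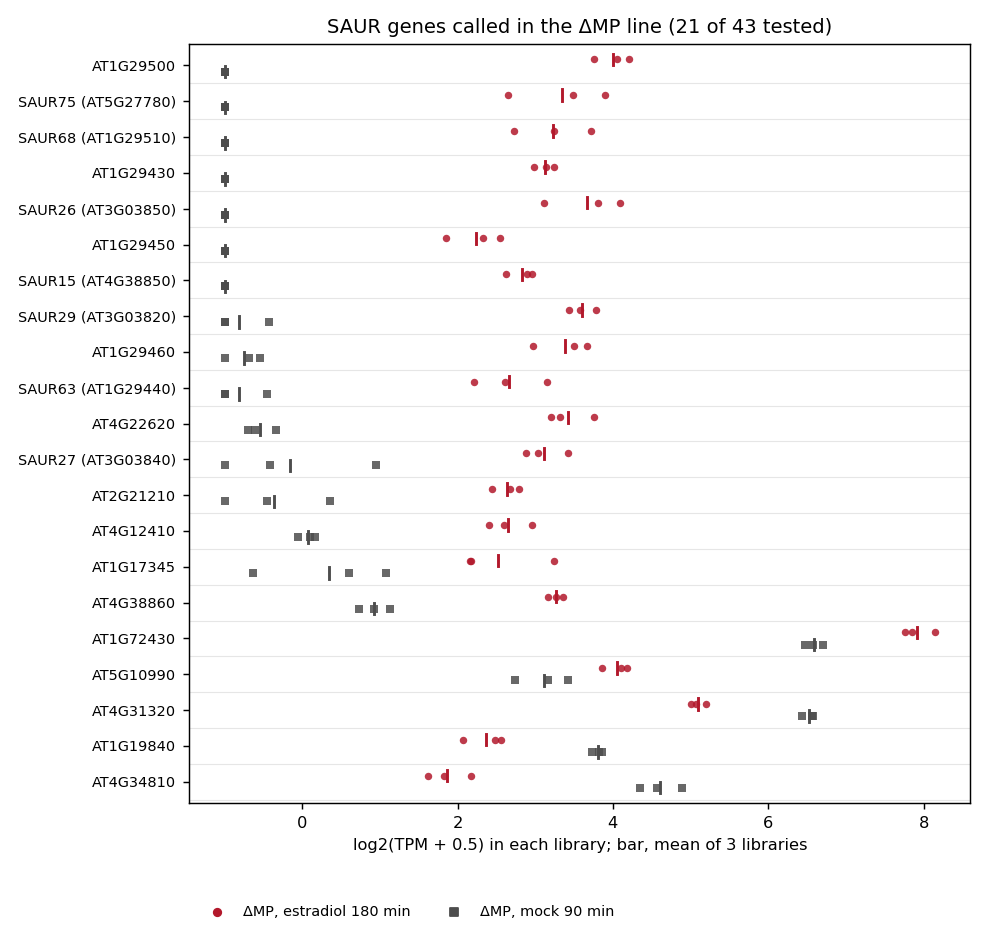
The 21 SAUR genes called in the ΔMP line, with log2(TPM + 0.5) in each library after 180 min of estradiol (red circles) and in mock (grey squares), and the mean of 3 libraries as a bar. In the 18 genes called up every estradiol library lies to the right of every mock library, and in AT4G31320, AT1G19840 and AT4G34810 to the left.

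The letters TGTCTC occurred between 250 bases before and 50 bases after the start in 26.3% of the promoters of genes called up (120 of 456; 95% Wilson interval 22.5 to 30.5%). The share was 13.7% in genes called down (35 of 255; 10.0 to 18.5%), 13.6% in all tested genes and 14.2% in all protein-coding promoters. TGTCGG was found in 9.65% of genes called up, 3.92% of genes called down and 5.64% of tested genes. Either word was found in 33.8% (29.6 to 38.2%) of genes called up, 17.6% (13.5 to 22.8%) of genes called down and 18.6% of tested genes. The interval of genes called up lay above the share of tested genes, and that of genes called down held it. Their shared core TGTC was in 87.5% and 81.2% of the same promoters and in 81.6% of tested ones. Among all genes that rose, whatever their fold, either word was in 24.2% (22.6 to 25.9%), and among those that fell in 15.4% (14 to 16.9%), below the share of tested genes. The letters TATAAA of the TATA box were searched on the strand of the gene. They were in 43.6% (39.2 to 48.2%) of genes called up, 40.4% (34.6 to 46.5%) of genes called down and 36.3% of tested genes. Among all genes that rose they were in 39.2% (37.3 to 41.1%), and among those that fell in 42.1% (40.2 to 44.1%). Their excess over tested genes was thus not particular to rising genes. Within the SAUR family either word was in 6 of the 18 genes called up (33.3%). TGTCTC alone was in 5 of them (27.8%) and in 12% of the other tested members, a difference within their intervals.

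Of the genes that act on auxin or on ARF activity, the ARF genes and the AGC kinases moved in one direction. Their median log2 fold changes were 0.227 and 0.373. The 8 tested GH3 genes of auxin conjugation had a higher median of 1.24, and 6 rose, 1 fell and 4 were called up. By the interaction term 5 of these 8 responded higher than in Col-0. Of 9 tested TAA and YUCCA genes of auxin synthesis 1 rose and 4 fell. Besides MP, 15 ARF genes were tested, 8 rose and none fell, and 6 responded higher than in Col-0. ARF10 (AT2G28350), a repressive ARF kept low by a microRNA, had 33.5, 33.2 and 32.5 TPM after 180 min of estradiol, against 16.5, 15.7 and 15.0 TPM in mock (log2 fold change 1.1, standard error 0.05, adjusted p = 1.75e-17). ARF19 (AT1G19220), an activating ARF of lateral root formation, had 20.9, 21.3 and 19.9 TPM, against 15.0, 14.8 and 15.7 TPM (0.46), and ARF16 (AT4G30080), a relative of ARF10, had 27.6, 30.7 and 29.2 TPM, against 23.8, 22.7 and 22.4 TPM (0.37). The libraries of the groups did not overlap in these 3 genes, and only ARF10 of the 15 reached the fold for a call.

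The AGC kinases PINOID, WAG and D6PK phosphorylate PIN auxin efflux carriers and set their polarity or activity. Of 8 tested, 5 rose and none fell, and 4 of the 8 already rose at 90 min. PID (AT2G34650) had 5.33, 3.91 and 4.43 TPM, against 1.12, 1.48 and 1.53 TPM in mock (1.72), and also rose in Col-0 (0.82). D6PK (AT5G55910), the most abundant of those named here, had 56.7, 62.4 and 59.6 TPM, against 50.0, 48.8 and 45.4 TPM (0.33). WAG2 (AT3G14370) had 13.2, 15.6 and 14.8 TPM, against 10.3, 11.2 and 10.9 TPM (0.46), and its mock level differed between the lines (adjusted p = 0.00171). The PIN carriers themselves changed little: of 6 tested, 3 rose and 1 fell, none was called, and EIR1 (PIN2) had 119 ± 1.92 TPM, against 106 ± 5.22 TPM (SD, n = 3). Of the 6 auxin receptors TIR1 and AFB, 2 fell and none rose, with a sum of 230.6 ± 4.30 TPM against 254 ± 5.00 TPM.

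In lists of genes named in earlier work as MP targets or as lateral root founders, a few members rose and none fell. Of all genes 12.7% rose and 12.1% fell, and in lists this short the counts of the 2 MP target lists lie near these shares. Of 11 MP targets known from the embryo, 2 rose, at a median log2 fold change of 0.116. They were LOG1 and LHW, and LHW (0.16) did not pass the adjusted p with limma or when single libraries were left out. Of 11 tested MP targets known from the shoot and flower, 2 rose, and in 4 the mock mean was below 1 TPM. FAF2 (AT1G03170) was called up there, and the largest log2 fold change of that list was 6.92. Of 10 lateral root LBD and founder genes, 3 rose, at a median of 0.335, while 12.7% of all genes rose. LBD29 (AT3G58190), an LBD factor of lateral root initiation, had 10.2, 10.8 and 11.6 TPM, against 6.79, 5.51 and 5.29 TPM in mock (0.90), and PUCHI (AT5G18560), an AP2 factor of the early primordium, 7.44, 8.36 and 6.31 TPM, against 4.40, 4.58 and 4.17 TPM (0.75). The third was LRR XI-23 (AT1G09970), a receptor kinase gene, with 167, 164 and 158 TPM, against 122, 126 and 129 TPM (0.40). Each of these 3 was higher in all estradiol libraries than in any mock library. MYB77 (AT3G50060), a MYB factor that interacts with ARFs in lateral root formation and is not in this list, had 8.61, 8.93 and 8.38 TPM, against 3.78, 3.00 and 2.95 TPM (1.48).

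Many of the largest changes fell on proteins of the cell wall. XTH enzymes cut and rejoin xyloglucan, the polymer that tethers cellulose microfibrils. Of 27 tested, 11 rose and 9 fell, 9 were called up and 1 was called down, against 2.34% and 1.31% of all genes. Their summed level was 2243 ± 85.3 TPM after 180 min of estradiol and 1398 ± 41.0 TPM in mock. Most of the gain came from 2 genes. XTH4 (AT2G06850) had 584, 561 and 618 TPM, against 160.2, 167 and 159 TPM in mock (1.87, adjusted p = 1.02e-23). XTH19 (AT4G30290) had 465, 474 and 518 TPM, against 166, 169 and 157 TPM (1.56). Its 2 close relatives went the other way: XTH18 (AT4G30280), its neighbor on chromosome 4, had 105, 109 and 117 TPM, against 150.5, 145 and 141 TPM (−0.38), and XTH17 (AT1G65310) had 106, 99.1 and 96.4 TPM, against 132, 129.8 and 120.3 TPM (−0.34). XTH5 (AT5G13870) had 115, 117 and 128 TPM, against 39.9, 42.0 and 38.4 TPM (1.61), rose by less in Col-0 (0.36), and differed between the mocks of the lines (adjusted p = 0.000196). XTH16 (AT3G23730) was lower at 35.3, 38.6 and 39.4 TPM, against 63.5, 62.2 and 62.5 TPM (−0.72). In none of these 6 genes did the groups overlap. XTH19 thus moved in the opposite direction to its relatives XTH17 and XTH18.

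Expansins loosen the wall without cutting it. Of 16 alpha-expansins tested, 7 rose, 3 fell, 3 were called up and 2 called down. EXP3 (AT2G37640) (EXPA3) had 12.8, 12.1 and 15.6 TPM, against 0.499, 0.968 and 0.969 TPM in mock (4.01, standard error 0.24), and EXPA8 (AT2G40610) had 3.58, 3.26 and 3.32 TPM, against 9.40, 9.46 and 8.85 TPM (−1.41). The other alpha-expansin called down, EXPA17 (AT4G01630), had 2.47, 1.08 and 1.54 TPM, against 91.6, 91.8 and 115 TPM (−5.92), the lowest fold change of the family, and stood at 58.5 ± 1.29 TPM after 90 min. The summed alpha-expansin level was 754 ± 11.2 TPM against 709.8 ± 13.7 TPM, a small gain beside the changes of single members. Of the 6 beta-expansins and expansin-like genes 3 rose and 1 fell. EXPB1 (AT2G20750) was the one that fell, with 47.1, 44.3 and 45.7 TPM, against 101, 89.3 and 95.0 TPM (−1.02), while EXLA1 (AT3G45970) had 49.9, 53.6 and 52.6 TPM, against 29.5, 31 and 31.2 TPM (0.79). EXPB3 (AT4G28250) rose to 50.0 ± 7.09 TPM, against 22.9 ± 2.33 TPM, but its mock level also differed between the lines (adjusted p = 1.08e-05; 46.2 ± 4.97 TPM in Col-0 mock).

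Extensins and proline-rich proteins are structural glycoproteins that are cross-linked into the wall, several of them in root hairs. Of 13 proline-rich extensin-like proteins, 8 rose, 2 fell and 5 were called up, while their summed level was 12630 ± 1428 TPM after 180 min of estradiol and 14040 ± 702 TPM in mock (SD, n = 3). In Col-0, 5 of the 13 rose and none fell, and 2 responded higher in ΔMP than in Col-0. The median log2 fold change was 0.793 in ΔMP and 0.426 in Col-0. For the other members, a difference that did not pass the test does not show an equal response. The largest fold change was that of AT5G19810, with 22.1, 24.6 and 23.8 TPM, against 0.387, 0.624 and 0.511 TPM in mock (5.48) and 0.872 ± 0.465 TPM in Col-0 at 180 min. PRP3 (AT3G62680), a root hair proline-rich protein, had 264, 256.3 and 277 TPM, against 119, 132 and 108 TPM (1.18), and 163 ± 31.2 TPM in Col-0 at 180 min, against 113 ± 14.9 TPM in the Col-0 mock. EXT10 (AT5G06640) had 60.7, 61.3 and 67.0 TPM, against 22.4, 29.7 and 18.5 TPM (1.46), and in Col-0 45.7 ± 10.00 TPM, against 19.8 ± 5.43 TPM (1.12). LRX3 (AT4G13340), a leucine-rich repeat extensin that takes part in cell wall sensing, was lower at 35.5, 35.0 and 32.9 TPM, against 80.4, 76.9 and 82.5 TPM in mock (−1.21). In these 4 genes the groups did not overlap, and in PRP3 and EXT10 the Col-0 level also stood between the ΔMP groups.

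Pectin enzymes included some of the deepest losses. Of 56 pectate lyases and polygalacturonases, which cut pectin chains, 14 rose, 11 fell, 2 were called up and 6 called down. The adjacent genes AT1G05650 and AT1G05660, which encode pectin lyase-like proteins, fell together. AT1G05650 had 0.654, 0.632 and 0.608 TPM after 180 min of estradiol, against 33.5, 33.7 and 41.1 TPM in mock (−5.82, standard error 0.15, adjusted p = 5.99e-24). AT1G05660 had 6.67, 7.27 and 6.82 TPM, against 72.8, 71.0 and 70.3 TPM (−3.34). Both were already lower at 90 min, at 20.6 ± 2.12 and 43.7 ± 3.75 TPM. A second group of neighbors on chromosome 2 behaved alike. AT2G43870 had 2.45, 1.66 and 2.33 TPM, against 6.83, 6.52 and 5.91 TPM (−1.54), AT2G43880 10.8, 12 and 13.0 TPM, against 28.0, 27.6 and 26.5 TPM (−1.17), and AT2G43890 0.0557, 0.0429 and 0.130 TPM, against 2.96, 2.53 and 2.95 TPM (−4.97). AT1G10640, of the same family, went up to 3.61, 3.28 and 4.03 TPM, against 0.694, 0.737 and 0.699 TPM (2.38). All 6 genes responded differently from Col-0, in which AT1G05650 alone of them fell (−0.59).

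Pectin methylesterases remove methyl groups from pectin, and a family of small inhibitor proteins blocks them. Of 47 genes of these kinds 13 rose and 11 fell, and 4 were called down against 1 called up. With limma on log2(TPM + 0.5) these counts were 11 and 12. AT4G25250, of the inhibitor superfamily, had 56.6, 53.1 and 58.0 TPM, against 190.4, 186 and 197 TPM in mock (−1.74), and AT5G51520 had 5.09, 4.42 and 6.07 TPM, against 21.0, 20.7 and 17.7 TPM (−1.86). AT5G04960, of the same superfamily, had 45.3, 45.5 and 47.0 TPM, against 19.8, 22.5 and 18.3 TPM (1.2). These groups did not overlap, and members moved both ways.

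Arabinogalactan proteins, which are heavily glycosylated proteins of the cell surface, fell more often than they rose. Of 41 tested 15 fell and 6 rose, at a median log2 fold change of −0.154. AGP22 (AT5G53250) had 339.9, 324 and 380.3 TPM, against 725, 805 and 794 TPM in mock (−1.08), and AGP7 (AT5G65390) had 289.8, 194 and 283 TPM, against 566, 467 and 659.5 TPM (−1.17). AGP3 (AT4G40090), by contrast, had 268, 183 and 279 TPM, against 113, 113 and 111 TPM (1.08), and AGP41 (AT5G24105) had 58.1, 44.1 and 60.2 TPM, against 25.9, 28.1 and 27.6 TPM (1.07). In each the groups did not overlap.

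Class III peroxidases cross-link or loosen walls with hydrogen peroxide. Of 55 tested 20 fell and 11 rose, 6 were called down and 3 called up, and 12 responded lower than in Col-0 against 3 higher. Their sum was 8472 ± 196 TPM after 180 min of estradiol and 9634 ± 177 TPM in mock. AT4G11290 had 38.2, 37.8 and 36.5 TPM, against 102, 102 and 104 TPM in mock (−1.43), and AT4G16270 2.12, 1.76 and 2.15 TPM, against 10.6, 9.96 and 10.3 TPM (−2.33). AT1G34510 was an exception with 13.4, 13.7 and 17.7 TPM, against 0.802, 1.62 and 1.36 TPM (3.53). Among cellulose synthases and related enzymes, 10 of 31 rose and 6 fell. ATCSLA09 (AT5G03760), which makes glucomannan, had 108, 104 and 119.7 TPM, against 62.9, 64.0 and 68.7 TPM (0.77). The CSLB genes named moved in both directions: CSLB02 (AT2G32620) had 28.2, 28.1 and 28.8 TPM, against 11.6, 10.3 and 11.5 TPM (1.37), and ATCSLB05 (AT4G15290) 5.29, 4.63 and 4.79 TPM, against 24.4, 21.7 and 21.9 TPM (−2.21), while CSLB03 (AT2G32530) had 1.72, 1.11 and 1.91 TPM, against 2.46, 2.70 and 2.53 TPM (−0.69). Of the 8 plasma membrane proton pumps, the pumps that SAUR proteins keep active, 2 rose and 1 fell and none was called.

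**Figure D3:**
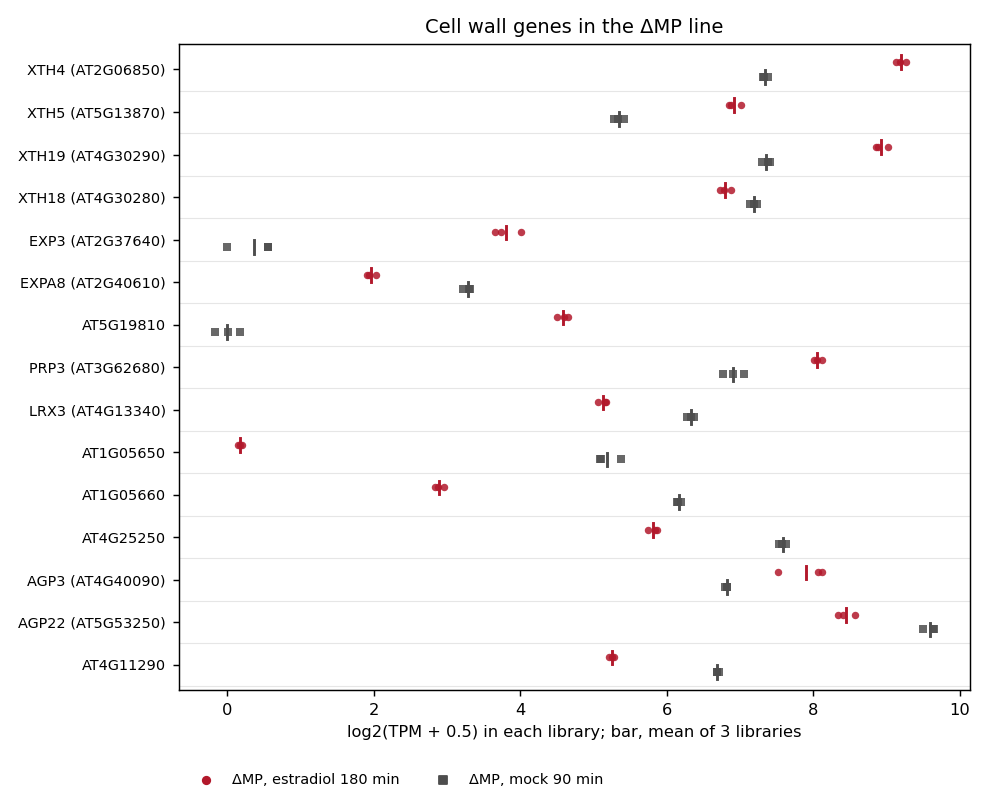
Cell wall genes in the ΔMP line, with log2(TPM + 0.5) in each library after 180 min of estradiol (red circles) and in mock (grey squares) and the mean of 3 libraries as a bar. XTH4, XTH19 and EXP3 lie higher in all estradiol libraries, and AT1G05650, AT1G05660, AT4G25250 and AT4G11290 lower, while XTH18 is lower by a log2 value of 0.38 in size.

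In the tissue lists the largest shift was in root hair genes. Every gene of the root hair, endodermis, xylem, phloem and root cap lists that matched a locus passed the filter on low counts, against 21 of 30 genes of green tissue. The green tissue genes summed to 255.6 ± 3.63 TPM after 180 min of estradiol and 299.6 ± 8.79 TPM in mock. Of 31 root hair genes 19 rose, 4 fell and 10 were called up, with a sum of 1585 ± 56.2 TPM after 180 min of estradiol, against 990.1 ± 50.3 TPM in mock. The lists overlap: XTH12, XTH13 and XTH26 of this list were also counted among the XTH genes above. In Col-0, 8 of the 31 rose and none fell, and 10 responded higher in ΔMP than in Col-0. RHS12 (AT3G10710), a pectin methylesterase gene of root hair cells, had 29.8, 28.6 and 32.4 TPM, against 13.3, 13.6 and 13.6 TPM in mock (1.19), and RHS18 (AT5G22410), a root hair peroxidase gene, had 27.2, 27.4 and 31.4 TPM, against 11.7, 12.7 and 11.2 TPM (1.28). Both responded higher than in Col-0, where RHS12 had 15.4 ± 2.79 TPM at 180 min and 14.7 ± 0.732 TPM in mock. RHS19 (AT5G67400), another root hair peroxidase gene, had 98.6, 97.8 and 112 TPM, against 37.3, 42.9 and 34.6 TPM (1.47), and also rose in Col-0 (0.79). RSL2 (AT4G33880), a bHLH factor of hair growth, had 19.6, 22.5 and 21.3 TPM, against 15.4, 14.9 and 14.1 TPM (0.52), whereas RHD2 (AT5G51060), the NADPH oxidase of growing hairs, was lower at 26.4, 24.9 and 25.8 TPM, against 30.4, 31.3 and 31.3 TPM (−0.25). The hair genes with the largest fold changes encode wall enzymes and wall proteins, and the 4 that fell were RHD6, RHD2, CSLD3 and LRL1. CSLD3 and LRL1 no longer passed the adjusted p when single libraries were left out.

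Of 11 genes that set the fate of epidermal cells 4 rose, none fell and 7 did not pass the test. GL2 (AT1G79840), the homeodomain factor that blocks hair formation in hairless cells, had 16.0, 16.7 and 17.3 TPM, against 9.21, 9.18 and 7.71 TPM in mock (0.96, adjusted p = 3.7e-11). MYB23 (AT5G40330), which acts with WEREWOLF in the same cells, had 24.2, 22.8 and 29.4 TPM, against 9.47, 10.1 and 9.97 TPM (1.41). Both groups of libraries were apart, and both genes responded higher than in Col-0.

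The endodermis, which seals the stele with the Casparian strip and suberin, had more genes that fell than rose. Of 24 barrier genes 8 fell and 3 rose, with a median log2 fold change of −0.102 in ΔMP and −0.168 in Col-0, and 2 responded higher and 2 lower than in Col-0. The sum was 1695 ± 31.8 TPM against 1898 ± 62.9 TPM. CASP4 (AT5G06200), a scaffold protein of the Casparian strip, had 34.8, 36.2 and 29.6 TPM, against 66.9, 65.4 and 68.6 TPM in mock (−0.97), and CASP5 (AT5G15290) had 43.1, 40.4 and 53.0 TPM, against 64.7, 64.3 and 66.9 TPM (−0.46). RBOH F (AT1G64060), the NADPH oxidase of Casparian strip lignification, had 19.5, 20.9 and 19.0 TPM, against 31.3, 31.7 and 32.8 TPM (−0.69). All 3 were lower in every estradiol library, and in Col-0 4 of the 24 fell.

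The 11 root cap genes did not move as a group. The 3 that rose were ARF10, ARF16 and WOX5 (AT3G11260), which act on the differentiation of columella stem cells, and the 2 that fell were NAC015 (AT1G33280) and SMB, NAC factors of the maturing cap. NAC015 had 6.71, 7.70 and 6.45 TPM, against 16.0, 16.1 and 16.7 TPM in mock (−1.21). WOX5, the homeobox gene of the quiescent center, had 8.18, 10.7 and 10.9 TPM, against 3.63, 4.47 and 3.79 TPM (1.33). Of 6 WOX genes tested 3 rose and none fell, among them WOX13 (AT4G35550) with 15.7, 16.5 and 17 TPM, against 11.6, 10.4 and 12.7 TPM (0.53). Of the 13 genes of the stem cell niche and meristem WOX5 alone rose and 3 fell. Of the genes that fell, SMB in the cap and SCR and AGL42 in the niche did not pass the adjusted p when single libraries were left out.

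The vascular and division lists held few genes that fell, against 12.1% of all genes tested. The xylem and phloem lists also held few that rose, against 12.7% of all genes. Of 19 xylem genes 1 rose, of 22 phloem genes 1 rose and of 10 procambium genes 2 rose, and none in these lists fell. The summed levels were 546.2 ± 24.2 TPM against 551.1 ± 29.9 TPM for xylem and 169.1 ± 7.19 TPM against 169.3 ± 5.20 TPM for phloem. Of 5 HD-ZIP III genes, factors of vascular patterning, 2 rose. Of 50 cell division genes 7 rose and 3 fell, none was called, and the sum was 1201 ± 41.0 TPM against 1086 ± 40.7 TPM.

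**Figure D4:**
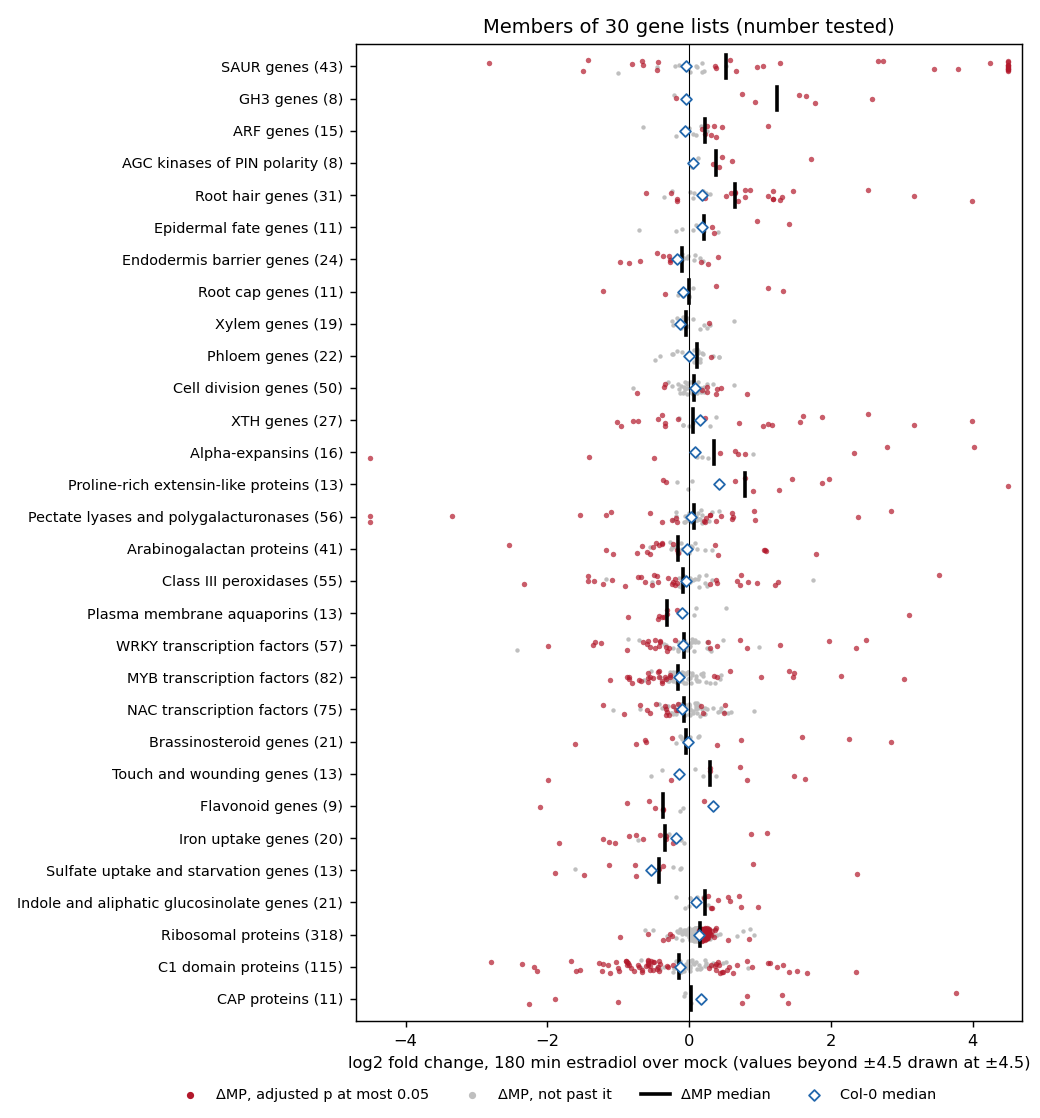
Log2 fold changes of the tested members of 30 gene lists between 180 min of estradiol and mock in the ΔMP line, in red for members past the adjusted p and in grey for the others. Black bars are the ΔMP medians and blue diamonds the Col-0 medians of the same genes. GH3, proline-rich extensin-like, root hair and SAUR genes have the highest ΔMP medians drawn (1.24, 0.793, 0.643 and 0.522), and sulfate, flavonoid, iron and plasma membrane aquaporin genes the lowest (−0.42, −0.372, −0.34 and −0.309). Fold changes of SAUR genes without a count in mock depend on the prior count.

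Transcription factors fell more often than they rose in several families, while single members rose strongly. In the WRKY family 18 of 57 fell and 9 rose, in the MYB family 21 of 82 fell and 9 rose, in the NAC family 15 of 75 fell and 4 rose, and in the bHLH family 22 of 97 fell and 12 rose. In Col-0 these families also fell more often than they rose, with 14, 13, 4 and 11 that fell and 0, 1, 0 and 1 that rose. By the interaction term more members responded higher than lower in ΔMP against Col-0, with 11 and 4 in the WRKY, 7 and 4 in the MYB, 5 and 4 in the NAC and 10 and 7 in the bHLH family. WRKY42 (AT4G04450), known for repressing a phosphate exporter gene, had 27.9, 27.1 and 31.4 TPM, against 4.66, 5.12 and 5.70 TPM in mock (2.49, adjusted p = 1.1e-17), and 5.14 ± 0.457 TPM in Col-0 at 180 min. MYB50 (AT1G57560) had 62.8, 59.7 and 67.6 TPM, against 14.1, 14.7 and 14.7 TPM (2.14). Both stood several-fold above mock in every library. MYB86 (AT5G26660) had 22.0, 23.2 and 21.3 TPM, against 48.6, 46.2 and 49.7 TPM (−1.12), and WRKY54 (AT2G40750), a WRKY gene of salicylic acid and senescence responses, 2.04, 1.66 and 2.23 TPM, against 5.17, 4.49 and 5.49 TPM (−1.33), with a smaller fall in Col-0 (−0.72). The bHLH genes AT1G29270 and AT5G43175 rose from low levels. AT1G29270 had 13.2, 10.9 and 16.1 TPM, against 2.38, 2.39 and 4.07 TPM (2.08). AT5G43175 had 4.83, 9.98 and 8.81 TPM, against no count in any mock library, at least 96.3-fold higher, a call that DESeq2 did not make (adjusted p = 0.187).

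Brassinosteroid genes moved in both directions, 5 of 21 up and 5 down. BAS1 (AT2G26710) encodes a P450 enzyme that inactivates brassinosteroids and had 45.2, 48.4 and 48.4 TPM after 180 min of estradiol, against 10.4, 9.86 and 9.81 TPM in mock (2.25, standard error 0.07). BEN1 (AT2G45400), a reductase with a like effect, had 75.9, 84.5 and 81.2 TPM, against 52.6, 48.6 and 47.4 TPM (0.72), and differed between the mocks of the lines (adjusted p = 0.00246). CYP72C1 (AT1G17060), which also lowers brassinosteroid levels, was lower at 16.9, 18.2 and 17.7 TPM, against 29.4, 26.3 and 26.5 TPM (−0.62), as was BR6OX2 (AT3G30180), which completes brassinolide synthesis, at 13.9, 14.4 and 13.7 TPM, against 23.2, 24.0 and 22.7 TPM (−0.75). Of the early brassinosteroid response genes, BEE1 (AT1G18400) had 7.71, 4.83 and 6.36 TPM, against 0.723, 1.11 and 0.735 TPM (2.85), and BEE2 (AT4G36540) 12.3, 10.8 and 14.6 TPM, against 3.35, 3.71 and 5.29 TPM (1.59). None of the 6 genes overlapped between the groups, and all 6 responded differently from Col-0.

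Single genes of hormone metabolism had large fold changes and are given one by one, though they belong to different lists that were counted. CYP94C1 (AT2G27690) and CYP94B3 (AT3G48520) encode P450 enzymes that oxidize the active jasmonate conjugate JA-Ile. CYP94C1 had 40.7, 41.6 and 42.9 TPM, against 1.39, 1.15 and 1.22 TPM in mock (5.1, adjusted p = 6.58e-24), and CYP94B3 had 29.1, 29.3 and 29.3 TPM, against 2.70, 3.32 and 2.29 TPM (3.43). Of 21 jasmonate synthesis and signaling genes 6 fell and 1 rose, and no member was called. UGT74E2 (AT1G05680), which glucosylates the auxin precursor indole-3-butyric acid, had 118, 115 and 131 TPM, against 22.7, 20.6 and 19.7 TPM (2.56). CCD8 (AT4G32810), an enzyme of strigolactone synthesis, had 2.57, 2.26 and 2.96 TPM, against 0.321, 0.346 and 0.384 TPM (2.89). Of 10 strigolactone and karrikin genes 2 rose and 2 fell, and CCD8 alone was called. In Col-0 at 180 min CYP94C1 was at 1.03 ± 0.241 TPM, UGT74E2 at 22.6 ± 2.26 TPM and CCD8 at 0.565 ± 0.211 TPM.

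Of 24 abscisic acid genes 6 rose and 6 fell. CYP707A1 (AT4G19230), which inactivates abscisic acid, had 38.7, 39.5 and 42.4 TPM, against 23.9, 25.5 and 24.1 TPM in mock (0.71), while in Col-0 it fell to 15.1 ± 3.05 TPM at 180 min, against 24.4 ± 1.91 TPM in mock (−0.69). NCED9 (AT1G78390), an enzyme of abscisic acid synthesis, was lower at 0.562, 0.482 and 0.388 TPM, against 1.54, 1.06 and 1.03 TPM (−1.31). ABCG40 (AT1G15520), an importer of abscisic acid, had 2.01, 1.68 and 1.88 TPM, against 0.213, 0.185 and 0.123 TPM (3.48). NCED4 (AT4G19170), a carotenoid cleavage enzyme related to NCED9, had 5.70, 6.76 and 7.08 TPM, against 0.112, 0.0372 and 0.0670 TPM (6.59). All 4 responded differently from Col-0. Of the ACC synthases, which make the ethylene precursor, ACS5 (AT5G65800) had 8.49, 9.34 and 12.8 TPM, against 4.92, 5.35 and 5.56 TPM (0.98), and 3 of 10 ACC synthases and oxidases rose and 3 fell.

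Among peptide hormones the phytosulfokine precursors diverged. PSK4 (AT3G49780) had 108, 129 and 105 TPM, against 200.1, 219 and 209 TPM in mock (−0.83), and PSK1 (AT1G13590) 55.8, 77.8 and 63.4 TPM, against 120.4, 100.01 and 98.3 TPM (−0.64), whereas PSK3 (AT3G44735) had 77.4, 82.8 and 81.2 TPM, against 32.5, 42.1 and 37.0 TPM (1.15). The precursors encode the same short sulfated peptide, so its genes moved in opposite directions. IDL1 (AT3G25655), of the IDA family, had 5.26, 7.10 and 3.40 TPM, against 20.7, 21.6 and 23.1 TPM (−2.08), and CLE14 (AT1G63245) had 8.81, 4.63 and 8.92 TPM, against 18.4, 21.4 and 17.4 TPM (−1.25). CLE13 (AT1G73965) had 7.40, 9.54 and 10.6 TPM, against 2.77, 3.43 and 5.69 TPM (1.21). Of 17 CLE genes 2 rose and 3 fell, and of 9 RALF genes 1 rose and 3 fell. Of 13 touch and wounding genes 6 rose and 2 fell, and 6 responded higher than in Col-0, where 1 fell. TCH3 (AT2G41100), a calmodulin-like protein, had 10.8, 14.7 and 10.1 TPM, against 3.53, 3.54 and 3.70 TPM (1.63).

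Aquaporins, the water channels, fell more often than they rose. Of 13 plasma membrane aquaporins 8 fell and 1 rose, with a sum of 5766 ± 132 TPM against 6973 ± 188 TPM in mock. PIP1;4 (AT4G00430) had 65.1, 65.5 and 58.5 TPM, against 116, 121 and 116 TPM (−0.87), and PIP2B (AT2G37170) 885, 939 and 849 TPM, against 1171, 1211 and 1129 TPM (−0.36). The one that rose was PIP2E (AT2G39010), with 43.7, 44.0 and 46.3 TPM, against 5.92, 5.50 and 4.87 TPM (3.11, adjusted p = 4.79e-18). Of 13 tonoplast and NIP aquaporins 5 fell and 1 rose. NLM1 (AT4G19030) (NIP1;1) had 70.4, 65.7 and 62.8 TPM, against 220.4, 204 and 203 TPM (−1.63), and TIP4;1 (AT2G25810) had 91.8, 91.4 and 87.7 TPM, against 167, 169 and 156 TPM (−0.83). In Col-0, 2 of each group fell, and PIP1;4, PIP2E, NLM1 and TIP4;1 responded differently from Col-0. Of 20 sugar transporters 7 fell and 2 rose, and of 54 peptide and amino acid transporters 14 fell and 6 rose.

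In both lines more iron, sulfate and phosphate genes fell than rose. Of 20 iron uptake genes 11 fell and 2 rose, and 7 fell in Col-0. bHLH39 (AT3G56980), a regulator of iron uptake, had 11.8, 12.4 and 7.62 TPM, against 27, 21.0 and 21.9 TPM in mock (−1.13), and in Col-0 23.4 ± 3.21 TPM, against 54.9 ± 5.17 TPM (−1.22). Of 13 sulfate uptake and starvation genes 7 fell and 2 rose in ΔMP, and 8 fell in Col-0. APR3 (AT4G21990), which reduces activated sulfate, had 75.1, 67.9 and 72.7 TPM, against 121, 120.4 and 131 TPM (−0.77), and in Col-0 100.47 ± 13.6 TPM, against 159.6 ± 14.9 TPM (−0.65). The log2 difference between the responses of the lines was 0.09 (standard error 0.18) for bHLH39 and −0.11 (standard error 0.11) for APR3, and neither passed the test. Other members did differ from Col-0: 1 iron gene responded higher and 2 lower, and 2 sulfate genes higher. Among them were FRO2 of the iron list (−1.47) and SULTR1;1 of the sulfate list (2.2). Both lost the test when single libraries were left out. The Col-0 mock of bHLH39 was higher than the ΔMP mock (adjusted p = 3.61e-09). Of 16 phosphate starvation genes 5 fell in ΔMP and 4 in Col-0, and of 22 circadian clock genes 7 and 6 fell. Nitrate genes differed: 5 of 18 rose in ΔMP and 3 in Col-0, and 4 responded higher in ΔMP. NIA1 (AT1G77760), a nitrate reductase, had 96.7, 101 and 80.9 TPM, against 53.0, 55.7 and 44.2 TPM (0.90), and NIR1 (AT2G15620), the nitrite reductase, 339.6, 324 and 319 TPM, against 258, 257 and 252 TPM (0.38). Both responded higher than in Col-0.

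Flavonoid genes moved in opposite directions in the lines. Of 9 flavonoid genes 6 fell and 1 rose in ΔMP, while 5 rose and 1 fell in Col-0, and 7 responded lower in ΔMP. TT7 (AT5G07990), the flavonoid 3′-hydroxylase, had 4.55, 4.20 and 4.06 TPM, against 17.9, 17.5 and 20.4 TPM in mock (−2.1), and in Col-0 13.8 ± 0.245 TPM, against 8.23 ± 0.259 TPM (0.76). F3H (AT3G51240) had 117, 119.9 and 127 TPM, against 166, 171 and 181 TPM (−0.48), and in Col-0 162 ± 3.14 TPM, against 129 ± 9.11 TPM (0.34). The mocks of the lines differed in both genes (adjusted p = 1.09e-11 and 7.8e-05), and the ΔMP mock was the higher. The part of this difference in the result was not tested. Of 151 cytochromes P450, 47 fell and 25 rose. CYP702A2 (AT4G15300) had 1.36, 1.61 and 1.41 TPM, against 8.96, 7.51 and 9.54 TPM (−2.57). Of 11 genes in triterpene clusters 6 fell, among them CYP71A16 (AT5G42590), a marneral oxidase, with 24.0, 22.5 and 22.1 TPM, against 45.7, 46.6 and 40.8 TPM (−0.97). Of 52 UDP-glycosyltransferases 17 fell and 10 rose. UGT71C1 (AT2G29750) had 209, 206 and 220.4 TPM, against 94.8, 93.3 and 99.5 TPM (1.17), and UGT84A2 (AT3G21560), a sinapate glucosyltransferase, 15.8, 14.7 and 14.9 TPM, against 55.7, 53.4 and 58.3 TPM (−1.86). Of 21 glucosinolate genes 10 rose and none fell, with 7 that rose in Col-0.

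Housekeeping genes shifted slightly. Of 318 ribosomal protein genes 102 rose and 6 fell, and none was called. Their median log2 fold change was 0.159, against 0.0137 for all genes. Without TMM scaling 87 rose, and in Col-0 43 rose at a median of 0.145. Of 25 heat shock genes 7 fell and 3 rose.

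Among product families with at least 10 tested genes, CAP proteins, secreted proteins related to PR-1, had the highest share called at 54.5% (6 of 11), with 3 called up and 3 down. AT5G57625 had 211, 211 and 212 TPM after 180 min of estradiol, against 80.8, 102 and 78.0 TPM in mock (1.31), and AT4G33730 29.3, 28.9 and 36.4 TPM, against 15.6, 13.0 and 9.23 TPM (1.39). AT4G31470 was lower at 12.6, 11.2 and 11.2 TPM, against 58.7, 55.7 and 53.2 TPM (−2.26, adjusted p = 1.02e-20). Levels of the 3 genes differed widely, but each was apart in all libraries. Of 115 proteins with the cysteine- and histidine-rich C1 domain 46 fell and 24 rose, with 14 called down and 8 called up. AT1G61840 had 1.17, 1.37 and 1.54 TPM, against 7.73, 6.86 and 6.65 TPM (−2.36), and AT5G45730 9.48, 8.92 and 8.84 TPM, against 1.75, 1.72 and 1.84 TPM (2.36). Of 18 dirigent-like proteins, which steer the coupling of phenolic radicals, 6 rose and 3 fell. AT3G13650 had 292, 264 and 288 TPM, against 87.4, 96.9 and 90.6 TPM (1.66), while in Col-0 it was lower at 67.8 ± 2.99 TPM, against 92.5 ± 4.21 TPM (−0.44).

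Of single genes, DGR1 (AT1G80240), a wall protein of the DUF642 family, was among those with the largest gains in level. DGR1 had 583, 586 and 592 TPM, against 136, 130.2 and 117 TPM in mock (2.23, standard error 0.08), and AT1G63840, a RING-type protein, had 249.5, 245 and 299 TPM, against 126, 126 and 129 TPM (1.1). RNS1 (AT2G02990), a secreted ribonuclease, had 48.1, 44.1 and 51.9 TPM, against 0.862, 0.828 and 1.31 TPM (5.57). Among the largest losses were AT5G46890, a lipid-transfer-like protein, with 356, 295 and 367 TPM, against 717, 643 and 675 TPM (−1.03), and AT2G39530, a CASP-like membrane protein, with 67.8, 55.4 and 67.7 TPM, against 237, 211 and 261 TPM (−1.84). AT5G46890 shares 49% of its 31-base words with other genes, so part of its reads may belong to them. AT5G45950, a GDSL lipase, had 7.47, 9.13 and 9.97 TPM, against no count in any mock library, at least 174.7-fold higher.

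At 90 min the ΔMP line stood at different points of these changes. Of all genes tested 250 (1.28%) rose and 537 (2.75%) fell at 90 min. The 90 and 180 min samples share one mock, so their values are given side by side. CYP94C1 was at 8.28 ± 1.35 TPM after 90 min and 41.7 ± 1.13 TPM after 180 min, against 1.25 ± 0.13 TPM in mock. DGR1 was at 231 ± 7.69 TPM after 90 min and 587 ± 4.59 TPM after 180 min, against 128 ± 9.44 TPM in mock. Both had risen at 90 min and were higher at 180 min. RNS1 was at 2.14 ± 0.558 TPM and XTH4 at 182 ± 6.18 TPM after 90 min, levels that did not pass the test against mock (adjusted p = 0.0695 and 0.0594). Many root hair and extensin genes were below mock at 90 min and above it at 180 min. PRP3 was at 65.9 ± 11.7 TPM after 90 min and 266 ± 10.6 TPM after 180 min, against 119.8 ± 12 TPM in mock, while Col-0 had 113 ± 13.6 and 163 ± 31.2 TPM, against 113 ± 14.9 TPM in mock. Of the 31 root hair genes 13 fell and none rose at 90 min, and of the 13 proline-rich extensin-like genes 9 fell. Of genes lower at 180 min, AT4G25250 (128 ± 16.9 TPM after 90 min and 55.9 ± 2.53 TPM after 180 min, against 191 ± 5.85 TPM in mock) and AT4G31470 (44.4 ± 1.19 and 11.7 ± 0.813 TPM, against 55.9 ± 2.76 TPM), had fallen at 90 min too.

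**Figure D5:**
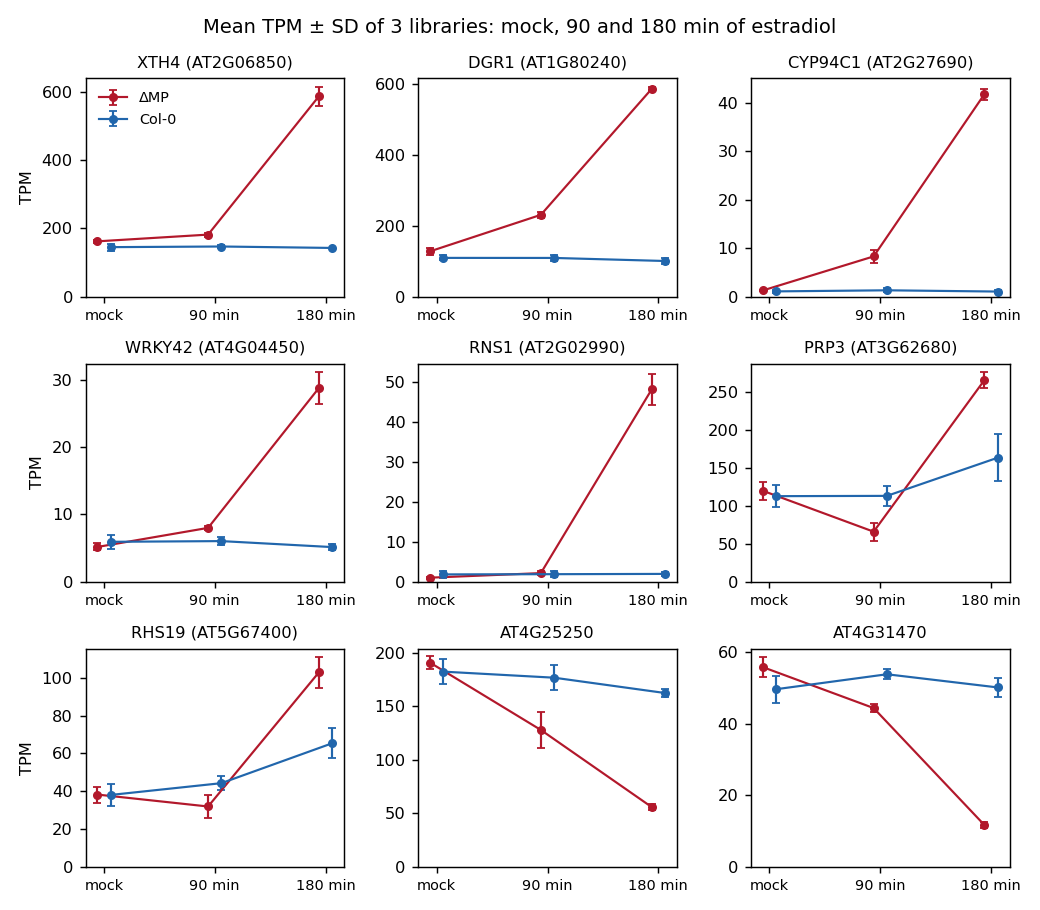
Mean TPM ± SD of 3 libraries for 9 genes in mock and after 90 and 180 min of estradiol, in the ΔMP line (red) and in Col-0 (blue), with TPM on a linear axis for each gene. CYP94C1, DGR1 and WRKY42 are above mock at 90 min and higher still at 180 min in ΔMP, XTH4 and RNS1 mainly at 180 min, and PRP3 dips at 90 min.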

How the data were processed

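RNA-seq libraries of root tips were compared in 2 groups of 3. The authors trimmed the reads and quantified them with Salmon 1.3.0 against Arabidopsis TAIR10 coding sequences, and each deposited file gives 32875 transcripts with their estimated counts and TPM. The submitters' notes name Trimmomatic for trimming, and the published methods name other tools. Estimated counts as deposited by the authors were summed over the transcripts of each of 27313 loci and rounded, since Salmon gives fractions, and the deposited TPM values were summed in the same way. Reads that fit several genes were shared out by the authors' model, which limits genes with near-identical copies. The total per library sets the precision of low counts, and intervals and floors cover counting error only.

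All 27 libraries, those of the AXR3-1 line included, were fitted in 1 model with edgeR 4.0.16 (R 4.3.3; TMM, filterByExpr, prior count 0.125, quasi-likelihood test, 18 residual degrees of freedom). The filter, the scaling and the estimate of spread thus rest on all 3 lines. The p-values were adjusted over 19530 genes by the Benjamini-Hochberg method. Fold changes are edgeR log2 values, and the number in brackets after a pair of TPM triplets is the log2 fold change. The response of ΔMP minus that of Col-0 was an interaction term. Scripts were tested on simulated data. A gene with no count in mock is given as a bound, with the mock set to 3 counts over the group. Gene symbols, product names and the promoters came from the TAIR10.1 annotation and genome of RefSeq, which held 26645 of the loci, and 96.3% of the transcripts compared had the same coding length in both. Shares of promoters carry 95% Wilson intervals.

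The members and the 88 gene lists were chosen with earlier results of these data known. Named genes are MP, up to 4 genes with the largest change in each list (6 in large families) and up to 3 of its best-known members, the 12 largest gains and losses in TPM and in fold among genes whose libraries did not overlap, and the 10 largest differences from Col-0 in each direction. CYP94C1, WRKY42 and the other genes drawn over time were chosen after their values were seen. Of the list names, 44 matched no locus. Summed levels of a list cover all its matched loci, also those not tested. Alternatives were DESeq2 1.42.0, limma 3.58.1 on log2(TPM + 0.5) and log2(TPM + 1), other scalings, filters and prior counts, a block for the library letter, no minimum fold and each library left out. Gene-level comparisons made by the authors were not used, and gibberellin and Aux/IAA genes were left out.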

Additional observations from a re-analysis of the deposited data

Results flagged for a closer look

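The response of 486 genes differed between ΔMP and Col-0 by the interaction term with a log2 difference of at least 1 in size (edgeR's quasi-likelihood test, adjusted p at most 0.05). Of the 712 genes called in ΔMP, 7 also changed in Col-0 past the adjusted p but in the opposite direction, and all 7 passed the test of the difference.

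AT5G43450, an oxygenase of the 2-oxoglutarate and iron type, was at 20.1 ± 3.31 TPM in ΔMP after 180 min of estradiol, against 1.18 ± 0.0685 TPM in mock, and at 0.424 ± 0.204 TPM, against 1.05 ± 0.278 TPM, in Col-0 (SD, n = 3; log2 difference of the responses 5.39). TCH3, a calmodulin-like gene, was at 11.9 ± 2.49 TPM, against 3.59 ± 0.0956 TPM, in ΔMP and at 3.25 ± 0.208 TPM, against 4.93 ± 0.398 TPM, in Col-0 (2.51). AT3G13650, a dirigent-like gene, differed by 2.1, and UGT71C1, a glycosyltransferase gene that was at 81.5 ± 5.85 TPM in Col-0 after 180 min, against 102 ± 3.37 TPM in mock, by 1.50.

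In the other direction, UGT84A1 was at 3.61 ± 0.289 TPM, against 11.6 ± 1.57 TPM, in ΔMP and at 13.1 ± 1.13 TPM, against 8.94 ± 0.656 TPM, in Col-0 (−2.20), and TT7 differed by −2.86. AT3G54830, an amino acid transporter gene, was at 0.245 ± 0.134 TPM, against 2.00 ± 0.129 TPM, in ΔMP and at 1.50 ± 0.186 TPM, against 0.837 ± 0.118 TPM, in Col-0 (−3.76). In TT7 and AT3G54830 the ΔMP mock was also higher than the Col-0 mock (adjusted p = 1.09e-11 and 0.000948), and the part of this in the result was not tested.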

How the results depend on the processing

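The 712 genes called between 180 min of estradiol and mock and the 486 genes whose response differed from Col-0 were counted under 22 alternative fits. They were 711 and 485 without TMM scaling, 713 and 484 with median-of-ratios size factors, 796 and 487 without a filter on low counts, 546 and 436 with a mean of at least 1 CPM (which left 167 of the 712 genes untested), 703 and 474 with the compared libraries alone, 680 and 477 with a prior count of 2, 683 and 488 with DESeq2, and 518 and 464 with limma on log2(TPM + 0.5). With limma on log2(TPM + 1) they were 440 and 382, a scale that shrinks fold changes of low genes, and 437 of the 440 were among the 712. With no minimum fold they were 4847 and 1970. Leaving out 1 library at a time gave 675 to 732 and 456 to 501. The letters A, B and C did not pair the libraries, since same-lettered libraries had correlations of deviations of −0.07, 0.024 and −0.012, and a replicate block for the letter gave 715 and 476.

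Of the 228 genes that could be named and had passed the adjusted p, 206 passed it under every alternative that tested them and 22 did not in at least 1, and in no alternative did a change of these genes reverse. Of 162 that differed from Col-0, 130 passed in every alternative. The calls of SAUR75, SAUR27, STP6, CYP93D1 and AT5G43175, whose mock counts were at or near 0, were lost under DESeq2. The share of promoters of genes called up with TGTCTC or TGTCGG, 33.8% against 18.6% of tested genes, was 24.2% among all genes that rose. It was 87.5% for the core TGTC, against 81.6% of tested genes, and 58.3% in 1000 bases before the start, a length added after the data were seen, against 51.3% of tested genes. Pectin methylesterases and inhibitors had more risen than fallen members in edgeR and the reverse with limma on log2(TPM + 0.5). Depth limits genes near 0 counts in mock, for which the size of a rise is a bound.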

Other observations

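Further genes stood out beside the families described above. STP6 (AT3G05960), a sugar transporter gene, had 0.707, 0.499 and 0.666 TPM after 180 min of estradiol in ΔMP, and CYP93D1 (AT5G06900), a P450 gene, had 0.994, 0.836 and 1.52 TPM. Neither had a count in any mock library of ΔMP or in Col-0 at mock and 180 min. CESA10 (AT2G25540), a cellulose synthase gene of low level, had 0.566, 0.580 and 0.531 TPM, against 0.0305, 0.0704 and 0.0844 TPM in mock (log2 fold change 3.08). PRA1.F1 (AT1G17700), a prenylated RAB acceptor, had 9.33, 9.65 and 10.8 TPM, against 0, 0 and 0.112 TPM, a ratio of counts of 225 with a 95% counting interval of 40.0 to 8948. RAS1 (AT1G09950) had 20.3, 21.0 and 26.3 TPM, against 0.17, 0.585 and 0.246 TPM (6.03), and 0.382 ± 0.136 TPM in Col-0 at 180 min (SD, n = 3). ABCB5 (AT4G01830) had 0.877, 0.786 and 1.13 TPM, against 0.0376, 0.0687 and 0.0384 TPM (4.26).

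The 90 min samples of ΔMP were below their mock in hair and wall genes that were above it at 180 min. The median log2 fold change of the 31 root hair genes was −0.396 at 90 min and 0.643 at 180 min, and that of the 13 proline-rich extensin-like genes was −0.774 and 0.793. EXT10 was at 13.2 ± 2.53 TPM after 90 min, 63.0 ± 3.45 TPM after 180 min and 23.5 ± 5.69 TPM in mock in ΔMP, while Col-0 had 27 ± 4.72 TPM after 90 min, 45.7 ± 10.00 TPM after 180 min and 19.8 ± 5.43 TPM in mock. RHS18 was at 6.90 ± 0.645 TPM after 90 min in ΔMP and at 11.7 ± 0.803 TPM in Col-0.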
